A study of Mus musculus with 15 samples.

Results

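The genes described here are 9 markers of mural cells, which wrap the wall of small blood vessels, and the actin-binding gene *Nexn*. The proteins of *Acta2*, *Tagln*, *Myh11*, *Myl9*, *Des* and *Nexn* build or bind the contractile and cytoskeletal filaments, while *Pdgfrb*, *Rgs5*, *Cspg4* and *Vtn* mark pericytes. All 10 were taken by symbol from the table of raw read counts, which holds 55421 genes. All were also among the 14852 protein-coding genes that passed the filter on low counts and were tested. The 10 genes were chosen by their fold changes in these libraries, those between WT mice on DOCA-salt and at baseline and those of *Nexn* above all, so for that comparison and for *Nexn* throughout the values are a description with no test. The comparisons of Null with WT mice reuse the WT libraries of that comparison, so there too values and counts are a description and no p is given for these genes.

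Mural cells are of 2 main kinds. Smooth muscle cells encircle arteries and arterioles and contract through actin and smooth muscle myosin, under the control of phosphorylated myosin light chains. Pericytes sit on capillaries within the basement membrane, are recruited by platelet-derived growth factor through its receptor PDGFR-beta, and in the brain help to keep the blood-brain barrier closed.

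RNA came from bilateral punches of the rostral ventrolateral medulla (RVLM), a brainstem region that drives sympathetic outflow to the vessels, of mice with floxed alleles of *Atp6ap2*, the gene of the prorenin receptor (PRR). All groups carried the floxed allele and a virus: AAV-GFP in the mice called WT, and AAV-CRE-GFP, which deletes exon 2, in the PRR RVLM-Null mice, here called Null. The labels give PRRf/y + AAV-GFP (4 libraries) and PRRf/y + AAV-CRE-GFP (4 libraries) at baseline, 3 weeks after the virus, and PRRf/f + AAV-GFP (4 libraries) and PRRf/f + AAV-CRE-GFP (3 libraries) after 13 days of DOCA-salt, which is a 50 mg pellet of deoxycorticosterone acetate with 0.15 M NaCl to drink. The study's methods give an age of 12 to 14 weeks at the start of experiments and state the 2 DOCA-salt group sizes the other way round (the labels were followed). A punch may hold tissue from outside the RVLM, a limit the study names. The virus acts in whatever cells it enters. The baseline mice were a separate cohort, labelled PRRf/y where the DOCA-salt mice are labelled PRRf/f. Cohort, labelled allele and DOCA-salt therefore cannot be told apart.

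Depth ran from 19053970 to 30504796 counts a library. The targeted gene *Atp6ap2* stood at 114 to 139 CPM (counts scaled to the total over the tested protein-coding genes, adjusted by TMM factors) in WT and 106 to 126 CPM in Null mice at baseline, at 134 to 154 CPM in WT mice on DOCA-salt, and at 90.2, 89.6 and 145 CPM in Null mice on DOCA-salt, counted over the whole gene and so also outside the deleted exon. At baseline the Null and WT libraries overlapped (log2 difference -0.06, SE 0.13, edgeR adjusted p = 0.923), so the gene shows no loss there and does not check those labels: Null at baseline means libraries labelled so. On DOCA-salt 1 Null library lay in the WT range, against its label, and is called the library labelled Null DOCA-salt replicate 3. Mitochondrial ribosomal RNA was 20.3% to 28.8% of counts at baseline and 2.42% to 5.84% on DOCA-salt, except for 19.1% in the library labelled Null DOCA-salt replicate 3. The labels call all mice female. Yet the study writes PRRf/y for hemizygous males and PRRf/f for homozygous females of this X-linked gene, so the baseline labels conflict with themselves. *Xist* and Y-linked genes gave a male pattern in 6 of 15 libraries, 1 or 2 in each group. Nothing in the labels says whether replicates came from separate animals, so p-values measure the spread between these libraries only. The 7 genes listed as markers of RVLM neurons were all tested, and their summed level moved with the groups: it was 149 to 187 CPM in WT and 188 to 262 CPM in Null mice at baseline, 227 to 415 CPM in WT mice on DOCA-salt and 135 to 206 CPM in Null mice on DOCA-salt.

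The levels of the 10 genes were compared per kilobase. Per kilobase of gene model, *Rgs5*, a regulator of G-protein signalling that marks pericytes, had the highest median over the 15 libraries, 27.3 CPM per kilobase (range 17.5 to 41.4). *Vtn*, which encodes the matrix protein vitronectin made in the brain by pericytes, followed with 20.2 (range 13.3 to 27.5). Next came *Nexn*, which encodes the actin-binding protein nexilin of striated and smooth muscle, with 9.40 CPM per kilobase (range 6.76 to 17.1). The contractile genes *Myl9* (7.19), *Myh11* (5.87) and *Acta2* (5.64) and the receptor gene *Pdgfrb* (4.07) lay close together on this scale, above *Tagln* (2.62) and *Cspg4* (2.26). *Des*, the gene of the intermediate filament desmin, was lowest at 0.558 CPM per kilobase (range 0.354 to 0.868), with 19 to 66 counts a library. Over the 15 libraries, the ranges of all neighbours in this order overlapped apart from *Cspg4* and *Des*. Across the libraries the level of *Acta2* varied most, 4.12-fold from lowest to highest, followed by *Tagln* (3.43-fold) and *Myh11* (3.00-fold), and that of *Pdgfrb* least (1.68-fold).

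**Figure D1:**
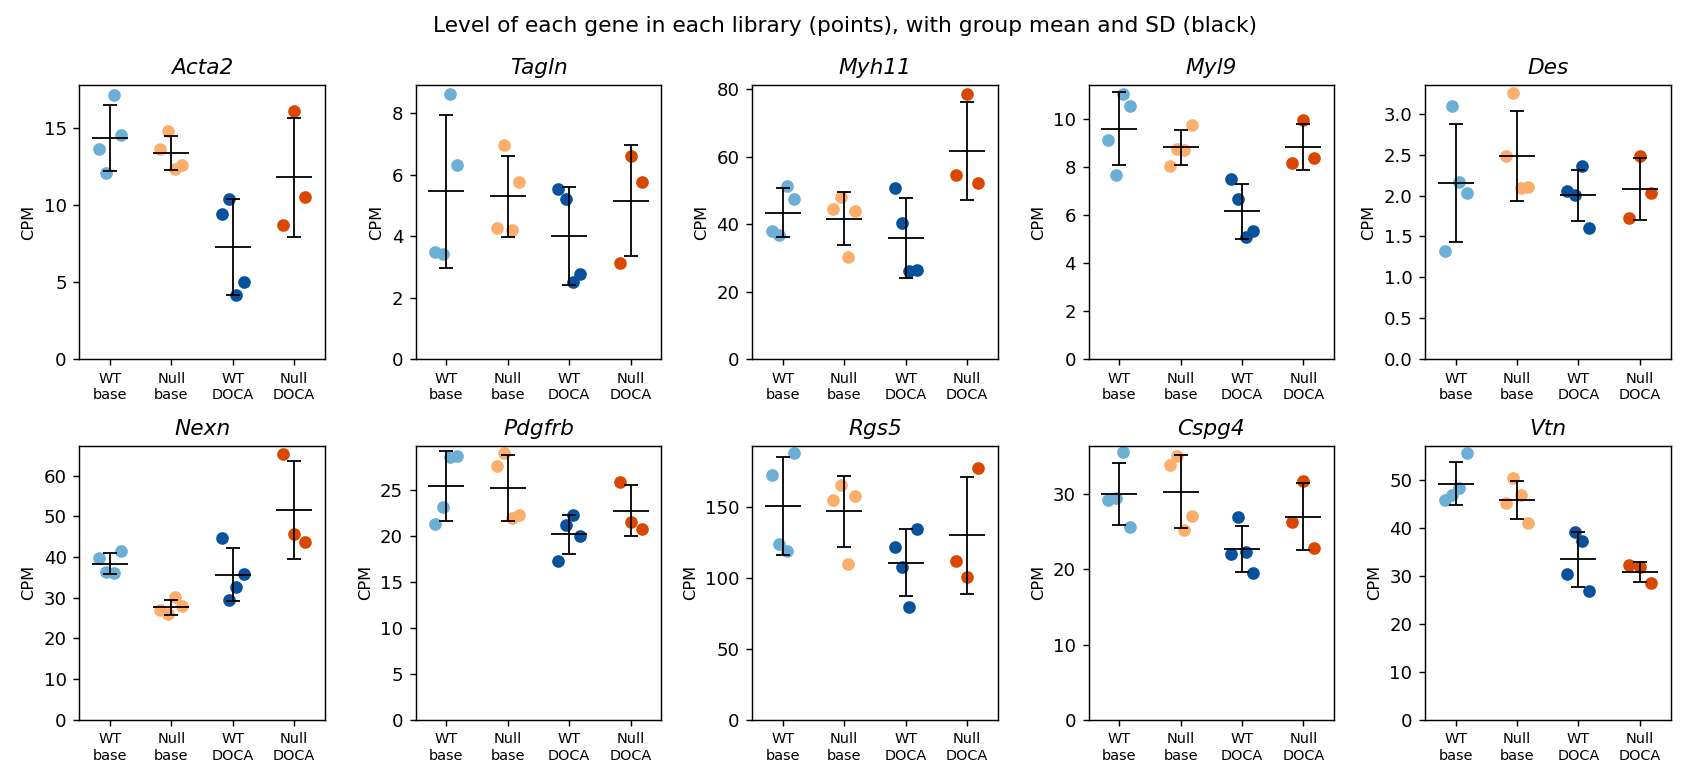
Level in CPM (vertical axes, from 0) of the 10 genes in each of the 15 libraries. Points are libraries, grouped as WT baseline, Null baseline, WT DOCA-salt and Null DOCA-salt, and black lines are the group mean and SD. *Vtn* reached at most 39.3 CPM in the 7 DOCA-salt libraries and at least 41.0 CPM in the 8 baseline ones, while in WT mice on DOCA-salt replicates 3 and 4 were the lowest of all libraries for *Acta2*, *Tagln*, *Myh11* and *Myl9*.

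Transcription of smooth muscle contractile genes is known to run through CArG boxes, which bind serum response factor with its coactivators of the myocardin family. The box reads the same on both strands, and it was searched in the 250 bases before the transcript start in RefSeq (build GRCm38.p6). Windows were found for 6 of the 10 genes: *Acta2*, *Myl9*, *Des*, *Rgs5*, *Cspg4* and *Vtn*. A box with no mismatch occurs in 1.47% of 32851 such windows, and one with up to 1 mismatch in its A/T core in 8.59%. *Tagln*, *Myh11*, *Nexn* and *Pdgfrb* had no window and were not searched, so boxes cannot be related to the differences between groups. *Acta2* and *Myl9* each held 2 boxes. Each is shown with the box in capitals and 10 bases on each side, 5′ to 3′ on the strand of the gene. The *Acta2* stretches lie at chr19:34255438-34255467 and chr19:34255388-34255417 on the minus strand, inside the first exon of a longer transcript in Gencode vM21, and both boxes have 1 mismatch. The *Myl9* stretches lie at chr2:156775293-156775322 (no mismatch) and chr2:156775355-156775384 (1 mismatch) on the plus strand, before the first exon.
Acta2 box 84 bases before the start: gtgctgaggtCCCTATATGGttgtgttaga
Acta2 box 34 bases before the start: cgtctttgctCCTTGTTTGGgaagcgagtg
Myl9 box 161 bases before the start: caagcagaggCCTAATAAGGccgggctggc
Myl9 box 99 bases before the start: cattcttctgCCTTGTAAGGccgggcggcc
No box with up to 1 mismatch was found in the windows of *Des*, *Rgs5*, *Cspg4* and *Vtn*. A match is a description of the letters in these windows and not a measured site of binding.

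The first comparison asked how the RVLM of WT mice differed between DOCA-salt and baseline. All 10 genes had a lower fitted level on DOCA-salt, with a median log2 difference of -0.42 beside -0.00092 over all genes tested. *Des* turned to a log2 difference of 0.13 without WT baseline replicate 2 and of 0.0048 without WT DOCA-salt replicate 4. In edgeR's quasi-likelihood test (call limit 0.05 after Benjamini-Hochberg adjustment over all genes), 3 of the 10 (*Acta2*, *Myl9* and *Vtn*) were lower and 0 higher, beside 6.12% of all genes lower, and since these values chose the genes, nothing is read from the count. With a limit of 2-fold added, 0 of 10 were called, beside 2.17% of all genes. In a bulk sample, fewer mural cells and less of an mRNA per cell cannot be told apart.

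*Acta2* (chr19:34241090-34255590, minus strand, coordinates here and below from Gencode vM21 on GRCm38) encodes smooth muscle alpha-actin, the thin filament actin of vascular smooth muscle. In WT mice at baseline its level was 13.6, 12.1, 17.2 and 14.6 CPM in replicates 1 to 4. On DOCA-salt it was 9.39, 10.4, 4.16 and 5.03 CPM. All 4 DOCA-salt libraries lay below all 4 at baseline, as they did for 9.74% of all genes, and replicates 3 and 4 were the lowest. The fitted log2 difference was -0.99 (SE 0.26), a fold of 0.504. The coding sequence of *Acta2* is 81.5% to 85.4% identical to those of 5 other actins. Identical runs were at most 56 bases, shorter than the study's reads. *Actb* was counted at 844 to 1782 CPM, and whether any counts of *Acta2* came from other actins was not tested.

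*Myl9* (chr2:156775420-156781658, plus strand) encodes the regulatory light chain whose phosphorylation switches on smooth muscle myosin. Its level was 9.09, 7.66, 11 and 10.5 CPM in WT mice at baseline, against 7.47, 6.67, 5.06 and 5.34 CPM on DOCA-salt. The groups did not overlap (9.74% of all genes were separate in this direction). The lowest baseline library (replicate 2) and the highest DOCA-salt library (replicate 1) nearly met. The log2 difference was -0.64 (SE 0.16). *Myl9* shares 86.3% of its coding sequence with *Myl12b* (130 to 196 CPM) and 79.6% with *Myl12a* (11.2 to 17.1 CPM). Identical runs were at most 35 bases, also shorter than the study's reads, and whether counts were shared was not tested.

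The other contractile genes overlapped between the 2 WT groups. *Tagln*, which encodes the actin-binding protein transgelin (SM22-alpha), was at 3.49, 3.42, 8.62 and 6.32 CPM at baseline, against 5.54, 5.21, 2.51 and 2.76 CPM on DOCA-salt (log2 difference -0.45, SE 0.35), which became -0.14 without WT baseline replicate 3 and -0.28 without WT DOCA-salt replicate 3. *Myh11*, the smooth muscle myosin heavy chain, was at 37.9, 36.7, 51.4 and 47.5 CPM at baseline, against 50.8, 40.4, 26.2 and 26.4 CPM on DOCA-salt (log2 difference -0.27, SE 0.21). In both genes, DOCA-salt replicates 1 and 2 lay within the baseline range and replicates 3 and 4 below it. These last 2 libraries, the lowest for *Acta2*, *Tagln*, *Myh11* and *Myl9*, had the highest summed level of the RVLM neuron markers of all 15, 415 and 310 CPM. Of the 7 neuron markers 5 rose in WT mice on DOCA-salt, beside 5.48% of all genes higher, among them *Ddc* (2.57), *Th* (2.57), *Slc18a2* (4.28) and *Dbh* (1.88), the genes of catecholamine synthesis and vesicle loading, and their part in the levels of the contractile genes was not tested. *Des* differed by -0.10 (SE 0.27) and *Nexn* by -0.11 (SE 0.14). *Tagln* and *Des* have annotated genes on the other strand, *Pcsk7* among them for *Tagln*, and whether the counting used strand is not stated in the sources used here.

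Among the pericyte genes, *Vtn* (chr11:78499091-78502324, plus strand) was lowest relative to baseline. Its level was 45.8, 47.0, 48.3 and 55.8 CPM in WT mice at baseline, against 30.5, 39.3, 37.2 and 26.9 CPM on DOCA-salt. The groups were separate, as for 9.74% of all genes in this direction (log2 difference -0.56, SE 0.12). *Rgs5* had a log2 difference of -0.45 (SE 0.21), *Cspg4*, which encodes the proteoglycan NG2 of pericytes and oligodendrocyte precursors, of -0.40 (SE 0.14), and *Pdgfrb*, the receptor through which pericytes are recruited, of -0.33 (SE 0.13). These 3 genes overlapped between the groups, *Rgs5* running from 119 to 188 CPM at baseline and from 79.4 to 135 CPM on DOCA-salt. Oligodendrocyte precursor markers, the other source of *Cspg4*, summed to 328 to 412 CPM at baseline and 305 to 397 CPM on DOCA-salt, but its 8 genes did not move together. *Olig1*, a transcription factor gene of the oligodendrocyte lineage and the most abundant of the list, fell (log2 difference -0.63, adjusted p = 0.0445), and *C1ql1* rose (2.94, adjusted p = 0.0131). Of the 8 genes, 4 had a positive and 4 a negative log2 difference, with a median of -0.03. Which cells gave the RNA of *C1ql1* was not tested, nor was the part of oligodendrocyte precursors in the difference of *Cspg4*.

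The same question was asked of Null mice, whose libraries are not among those of the WT comparison. The genes were still chosen with earlier results of these data known, so the p-values below are no independent test. The Null libraries also came from the same baseline and DOCA-salt cohorts, so a fall in both genotypes is not an independent repeat. *Vtn* fell, while *Acta2*, *Tagln*, *Myl9*, *Des*, *Pdgfrb*, *Rgs5* and *Cspg4* did not pass the test. *Vtn* was at 45.3, 50.5, 46.9 and 41.0 CPM at baseline and at 32.3, 31.9 and 28.5 CPM on DOCA-salt. No library overlapped between the groups (11.1% of all genes were separate in this direction), and the log2 difference was -0.57 (SE 0.13), a fold of 0.673 (edgeR adjusted p = 0.0193). The exact two-sided permutation test gave p = 0.0571, the smallest that 3 against 4 libraries allow. The call was lost without Null baseline replicate 2 (adjusted p = 0.0551) or replicate 3 (adjusted p = 0.0520), and with only the 2 groups in the fit (adjusted p = 0.0519). Without the library labelled Null DOCA-salt replicate 3 it was kept (log2 difference -0.51, adjusted p = 0.038). Of the 9 genes tested, 1 was called, beside 6.46% of all genes called in either direction, and 2 had an unadjusted p under 0.05, beside 25.8% of all genes. With the 2-fold limit 0 of 9 were called, beside 1.59% of all genes.

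The level of *Vtn* in all 7 DOCA-salt libraries was below that in all 8 baseline libraries, as for 2.93% of all genes tested, and since the WT libraries among them chose the gene, nothing is read from that share. Its log2 differences in WT and Null mice were -0.56 and -0.57, and the difference between these responses was -0.015 (SE 0.17, 95% interval -0.38 to 0.35). Other measures moved with the cohort in the same libraries. The 5 red blood cell genes summed to 39.7 to 82.6 CPM in WT and 41.6 to 59.1 CPM in Null mice at baseline, and to 13.7 to 20.7 and 23.4 to 36.1 CPM on DOCA-salt, and none of the 5 was at 0. In WT mice 4 of the 5 fell, beside 6.12% of all genes lower. In Null mice 2 of the 5 fell, *Hbb-bs* (-1.35) and *Hba-a2* (-0.87), beside 3.77% of all genes lower. Their part in the difference of *Vtn* was not tested. Mitochondrial ribosomal RNA was lower on DOCA-salt too, apart from the library labelled Null DOCA-salt replicate 3 (19.1% of counts), in which *Vtn* was at 28.5 CPM, and its part was not tested.

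Among the contractile genes of Null mice other than *Nexn*, *Myh11* was the one farthest above its baseline level. *Myh11* (chr16:14194535-14291372, minus strand) was at 44.6, 47.9, 30.2 and 43.9 CPM at baseline and at 54.5, 78.5 and 52.1 CPM on DOCA-salt. All 3 DOCA-salt libraries were above all 4 at baseline, replicate 2 by the most, and 9.38% of all genes were separate in this way. Without that replicate 2 the log2 difference of *Myh11* was 0.36 (adjusted p = 0.369). With all libraries it was 0.57 (SE 0.23), which did not pass the correction (unadjusted p = 0.0245, edgeR adjusted p = 0.134), and the exact permutation p was 0.0571, again the smallest possible. *Acta2* was at 13.6, 14.8, 12.4 and 12.6 CPM at baseline, against 8.74, 16.1 and 10.6 CPM on DOCA-salt, with the DOCA-salt libraries on both sides of the baseline range (log2 difference -0.18, SE 0.28, adjusted p = 0.730). *Myl9* was at 8.02, 8.75, 8.68 and 9.75 CPM at baseline, against 8.16, 9.92 and 8.35 CPM on DOCA-salt, nearly the same range (log2 difference 0.0042, 95% interval -0.35 to 0.36). The intervals of *Tagln* (-0.83 to 0.75), *Des* (-0.87 to 0.35), *Rgs5* (-0.65 to 0.30), *Cspg4* (-0.50 to 0.16) and *Pdgfrb* (-0.45 to 0.16) all included 0.

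On DOCA-salt, Null mice were compared with WT mice, the comparison that bears on what PRR in the RVLM does during the hypertension. The 4 WT libraries on DOCA-salt belong to the comparison that chose the genes, and choosing genes that were low in them favours positive differences here, so nothing is read from the direction or the counts. The fitted level in Null mice was 1.72 times that in WT mice for *Myh11*, 1.63 times for *Acta2* and 1.44 times for *Myl9*. With edgeR, 0 of the 9 genes other than *Nexn* were called, beside 0.0202% of all genes, and at an unadjusted p under 0.05 there were 3 of 9, beside 14.4% of all genes. DESeq2 called 1 of the 9, *Myh11*, but its share over all genes was not taken, so nothing is read from that call.

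For *Myh11* the 3 Null libraries (54.5, 78.5 and 52.1 CPM) lay above all 4 WT libraries (50.8, 40.4, 26.2 and 26.4 CPM), with a log2 difference of 0.78 (SE 0.23). The lowest Null library and the highest WT library of *Myh11* were close. For *Myl9*, the Null libraries (8.16 to 9.92 CPM) also lay above the WT libraries (5.06 to 7.47 CPM), with a log2 difference of 0.52 (SE 0.17). Such a separation upward was seen for 3.89% of all genes. *Acta2* overlapped, since Null replicate 1 (8.74 CPM) was below WT replicates 1 and 2 (9.39 and 10.4 CPM), and its log2 difference was 0.71 (SE 0.27), or 0.41 without Null replicate 2. For *Tagln* it was 0.37 (SE 0.37) and for *Des* 0.05. Without the library labelled Null DOCA-salt replicate 3, 0 of the 9 were called as well, with log2 differences of 0.89 for *Myh11*, 0.56 for *Myl9* and 0.78 for *Acta2*.

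For the pericyte genes, log2 differences of Null against WT mice on DOCA-salt were 0.25 for *Cspg4*, 0.23 for *Rgs5*, 0.17 for *Pdgfrb* and -0.11 for *Vtn*, with 95% intervals that ran from -0.38 (*Vtn*) to 0.70 (*Rgs5*) and all included 0. *Rgs5* was at 112, 101 and 178 CPM in Null mice and 122, 108, 79.4 and 135 CPM in WT mice. The highest of these was the library labelled Null DOCA-salt replicate 3, and without it the log2 difference of *Rgs5* was -0.06. The median over the 4 pericyte genes was 0.20, that over the 5 contractile genes other than *Nexn* 0.52, and that over all genes tested 0.02. The 2 sets were not tested against each other, and *Des* lay below *Cspg4*, *Rgs5* and *Pdgfrb*.

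**Figure D2:**
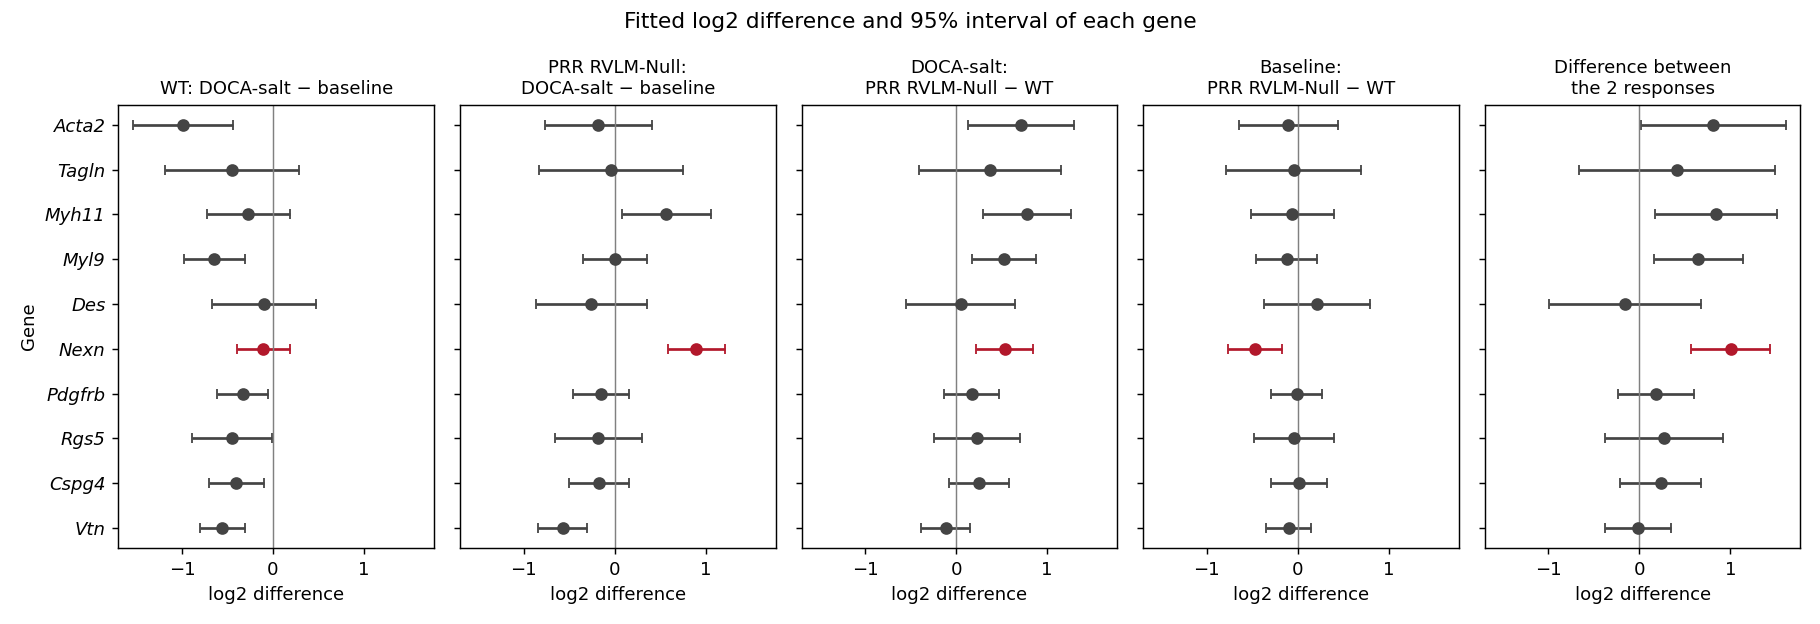
Fitted log2 difference (horizontal axes) of each of the 10 genes in the 4 comparisons and in the difference between the DOCA-salt responses. Points are edgeR estimates, bars their 95% intervals not corrected for the number of genes, and *Nexn* is in red. In WT mice all points lie below 0, while in the difference between responses *Acta2*, *Myh11*, *Myl9* and *Nexn* have intervals above 0, a direction that the choice of the genes favours.

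The difference between the DOCA-salt responses of Null and WT mice subtracts the WT response by which the genes were chosen, so positive values were favoured and are a description. On the log2 scale the responses differed by 0.84 for *Myh11* (SE 0.31), by 0.81 for *Acta2* (SE 0.38, and by 0.52 without Null DOCA-salt replicate 2) and by 0.65 for *Myl9* (SE 0.23). Of the 9 genes other than *Nexn*, edgeR and DESeq2 called 0, beside 0.512% of all genes with edgeR, and 3 of 9 had an unadjusted p under 0.05, beside 16.8% of all genes.

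At baseline, Null and WT mice were compared before any DOCA-salt. The WT libraries here are again those of the comparison that chose the genes. Of the 9 genes other than *Nexn*, edgeR and DESeq2 called 0, where edgeR called 0% of all genes, and 0 of 9 had an unadjusted p under 0.05, beside 10.1% of all genes. Log2 differences ran from -0.12 (*Myl9*) to 0.21 (*Des*). Taking all 9 together, the 95% intervals reached from -0.79 to 0.79, both ends set by the 2 lowest genes, *Tagln* and *Des*. For *Vtn* the interval was -0.35 to 0.15, and for *Pdgfrb* it was -0.29 to 0.27.

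Over the 15 libraries, *Nexn* (chr3:152236982-152266350, minus strand) had Pearson's r of log2 CPM of -0.10 with *Acta2* and -0.13 with *Tagln*. The r was 0.12 with *Myl9*, 0.42 with *Myh11* and -0.42 with *Des*. Nexilin binds actin filaments and holds the Z-disc of striated muscle together. Its level was 39.6, 36.4, 36.0 and 41.5 CPM in WT and 26.8, 25.9, 30.1 and 27.8 CPM in Null mice at baseline. On DOCA-salt it was 44.7, 29.5, 32.7 and 35.8 CPM in WT and 65.4, 45.5 and 43.8 CPM in Null mice. At baseline all 4 Null libraries were below all 4 WT libraries, as for 4.39% of all genes, and on DOCA-salt the groups overlapped, with Null replicate 1 the highest of all 15. The log2 difference between Null and WT mice was -0.47 (SE 0.14) at baseline and 0.53 (SE 0.15) on DOCA-salt. Within Null mice it was 0.90 (SE 0.15) on DOCA-salt against baseline, and the responses of the 2 genotypes differed by 1.0 (SE 0.20). Between genotypes on DOCA-salt *Nexn* and the 5 other contractile genes were all positive, *Myh11* (0.78) and *Myl9* (0.52) among them. The choice of the genes favours this direction. Of the 15 other smooth muscle genes described below, 7 were negative and 8 positive between genotypes at baseline, and 14 positive on DOCA-salt. *Tpm1* (-0.30 and 0.34) was among those with the signs of *Nexn*. Because *Nexn* was chosen with this pattern known, these are descriptions. Without Null DOCA-salt replicate 1 the difference between responses was 0.80, and the difference on DOCA-salt 0.32. A gene model of unknown status, *Gm43185*, overlaps *Nexn* on the same strand.

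Libraries differed in a shared way in 4 of the 6 contractile genes. Over the 15 libraries, Pearson's r of log2 CPM was 0.65 to 0.92 for the 6 pairs among *Acta2*, *Tagln*, *Myh11* and *Myl9*, and 0.80 to 0.85 after removal of the group means. *Des* had r of 0.078 to 0.31 with these 4 genes. The pair *Acta2* and *Myl9* had the highest r, 0.92. All pairs share libraries and scaling, and the values lean on WT DOCA-salt replicates 3 and 4, without which the 6 pairs had r from 0.16 (*Acta2* and *Myh11*) to 0.74 (*Acta2* and *Myl9*) over 13 libraries. The 6 pairs among pericyte genes had r of 0.16 to 0.68 (-0.35 to 0.58 within groups), and *Nexn* had r of -0.47 to 0.42 with the other 9 genes. The summed level of the 5 contractile genes other than *Nexn* was 0.243 to 0.390 times that of the 4 pericyte genes in the 8 baseline libraries and 0.205 to 0.392 times in WT mice on DOCA-salt. In Null mice on DOCA-salt it was 0.388, 0.610 and 0.315 times in replicates 1 to 3, so 1 of the 3 libraries lay above the baseline range.

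**Figure D3:**
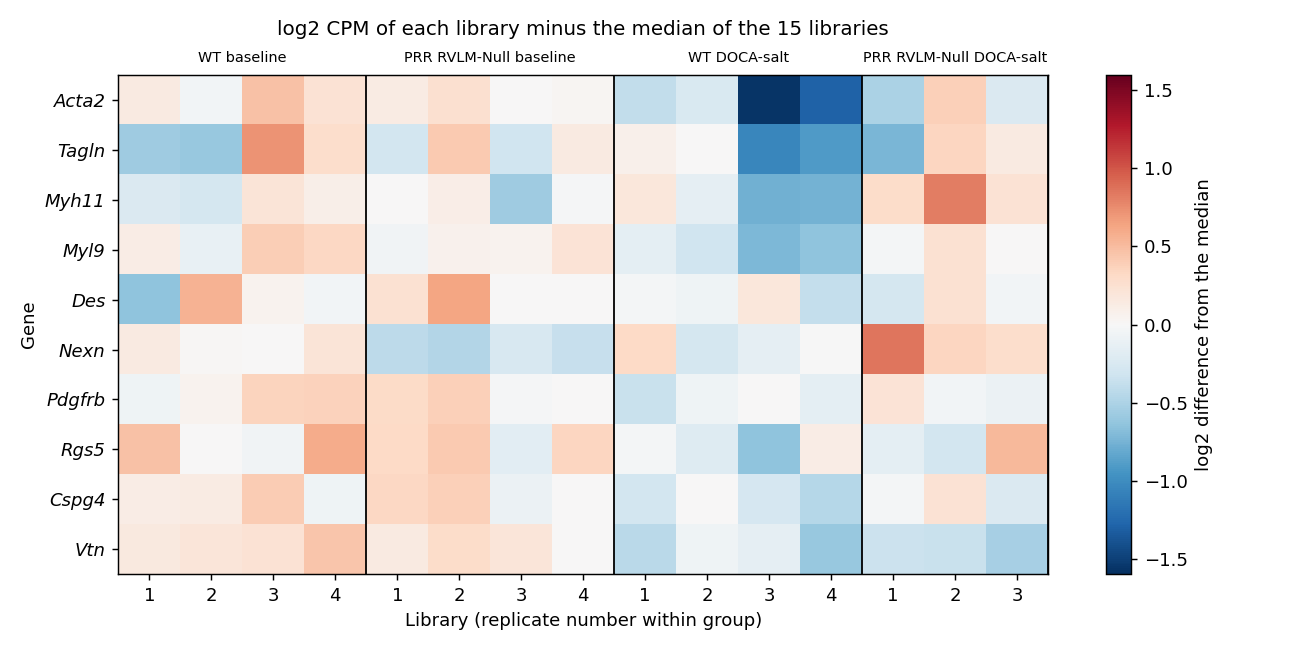
Log2 CPM of each gene in each library minus its median over the 15 libraries (colour, red above and blue below). Rows are genes and columns are libraries by group and replicate. WT DOCA-salt replicates 3 and 4 are below the median in *Acta2*, *Tagln*, *Myh11* and *Myl9* together, *Vtn* is below it across the DOCA-salt libraries, and *Nexn* is below it in the 4 Null baseline libraries.

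**Figure D4:**
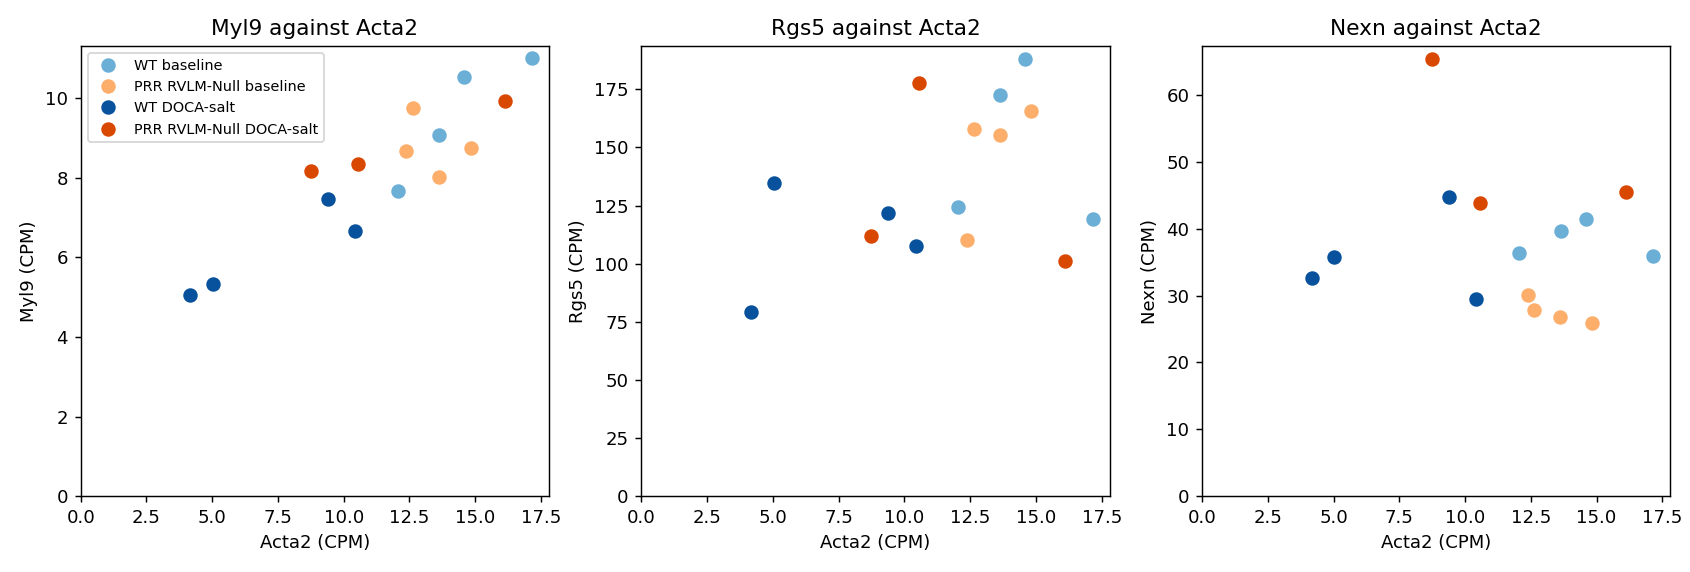
Level of *Myl9*, *Rgs5* and *Nexn* (vertical axes, CPM) against that of *Acta2* (horizontal axes, CPM), 1 point a library, coloured by group. *Myl9* followed *Acta2* (r of log2 CPM 0.92), *Rgs5* less so (0.46) and *Nexn* did not (-0.10).

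By the same measure, the genes outside the 10 with the pattern most like *Acta2* were *Sod3* (r = 0.89), *Chil1* (0.87), *Pltp* (0.87), *Diaph2* (0.86) and *Serpine2* (0.86), and without the 2 libraries farthest from the median of *Acta2* their r was 0.63 to 0.90. *Sod3* encodes the extracellular superoxide dismutase found in vessel walls. Those most like *Rgs5* were *Abca8a* (0.91), *Car13* (0.89), *Eps15* (0.89), *Taf7* (0.87) and *Chordc1* (0.86), with 0.73 to 0.85 without the 2 libraries farthest from its median.

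A list of other smooth muscle genes, not all of them contractile, was written with earlier results known. The adjusted p-values given for these genes are therefore no independent test. Which cells of the punch gave their RNA was not tested. Of 16 genes, 15 were tested. In Null mice on DOCA-salt against baseline 1 rose and 0 fell, beside 2.69% of all genes higher, and 14 of 15 had a positive log2 difference, with a median of 0.37 beside 0.02 over all genes. The gene that rose was *Smtn*, which encodes the actin-associated protein smoothelin of contractile smooth muscle (0.76, SE 0.17, adjusted p = 0.0206). Of the 4 most abundant genes of the list, *Sncg*, the gamma-synuclein gene, had a log2 difference of 0.93 (adjusted p = 0.197), *Tpm1*, a tropomyosin gene, one of 0.33 (adjusted p = 0.146), *Mcam*, a cell adhesion gene, one of 0.46 (adjusted p = 0.582), and *Ppp1r14a*, which encodes an inhibitor of myosin phosphatase, one of 0.43 (adjusted p = 0.267). Against WT mice on DOCA-salt 0 of 15 were called, beside 0.0202% of all genes, so nothing is read from that count. The median was 0.47 beside 0.02 over all genes, and 14 were positive. The share of all genes that were positive was not taken. The WT libraries on DOCA-salt are again those of the comparison that chose the mural genes, so nothing is read from this direction. In WT mice on DOCA-salt against baseline 0 were called, beside 5.48% of all genes higher and 6.12% lower, with a median of -0.06. At baseline between genotypes 0 were called, beside 0% of all genes, with a median of 0.02, 8 positive and 7 negative. The summed level of the list at baseline was 873 to 987 CPM in WT and 463 to 766 CPM in Null mice. *Sncg* (mean 311 CPM over the 15 libraries), *Tpm1* (192 CPM) and *Mcam* (103 CPM) weighed most in this sum, and *Smtn* (14.9 CPM) little. The sum is therefore no measure of smooth muscle RNA as a whole. At baseline the log2 differences of Null against WT mice were -0.99 for *Sncg*, -0.95 for *Mcam*, -0.30 for *Tpm1* and 0.16 for *Ppp1r14a*. On DOCA-salt the sum was 600 to 1004 CPM in WT and 800 to 1117 CPM in Null mice.

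Among 13 further pericyte genes, 0 were called in Null mice on DOCA-salt, in Null against WT mice on DOCA-salt, or at baseline. The medians were 0.07, 0.11 and -0.02, and the shares of all genes called were 6.46%, 0.0202% and 0%. *Abcc9*, which encodes a subunit of the potassium channel typical of brain pericytes, had log2 differences of -0.21 (SE 0.16) and -0.15 (SE 0.15) in the first 2 of these, and *Notch3*, the Notch receptor of mural cells, of -0.08 (SE 0.18) and 0.08 (SE 0.18). In WT mice on DOCA-salt 1 of 13 fell, *Rgs4* (log2 difference -1.03, adjusted p = 0.0248), a gene that neurons express as well, beside 6.12% of all genes lower. Of 20 genes of mural ligands, receptors and transcription factors, 18 were tested under their current symbols. In WT mice on DOCA-salt 1 rose, the angiotensin receptor gene *Agtr1a* (2.91, SE 0.79, adjusted p = 0.0276), beside 5.48% of all genes higher, and 0 were called in the other 3 comparisons. The genes of the serum response factor coactivators *Mrtfa* and *Mrtfb* had log2 differences of -0.04 (SE 0.16) and 0.20 (SE 0.11) in WT mice and of 0.08 (SE 0.17) and -0.07 (SE 0.12) in Null mice. *Epas1*, a hypoxia-inducible factor gene and the most abundant of the list, had -0.21 (SE 0.13) and 0.18 (SE 0.14).

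Markers of neighbouring cells were read for each comparison. Of 12 endothelial genes 0 were called in any comparison. In Null against WT mice on DOCA-salt all 12 were positive, with a median of 0.19 beside 0.02 over all genes. The share of all genes that were positive was not taken. In that comparison 8 of the 9 mural markers were positive as well. The endothelial genes summed to 502 to 567 CPM in Null and 418 to 473 CPM in WT mice on DOCA-salt, and 420 to 546 CPM at baseline. The part of endothelial RNA in the differences of the contractile genes was not tested. Of 10 fibroblast and meningeal genes, *Ptgds* the most abundant, 0 were called in any comparison. Of 7 astrocyte genes, *Slc1a2* the most abundant, 1 was called, *Gfap*, the intermediate filament gene of reactive astrocytes. It rose in WT mice on DOCA-salt (2.09, edgeR adjusted p = 0.0124), beside 5.48% of all genes higher. Of 15 striated muscle genes 8 were tested, and in Null mice on DOCA-salt *Myh4* (2.13, adjusted p = 0.0274) and *Mylpf* (1.64, adjusted p = 0.0379) rose, beside 2.69% of all genes higher, from at most 0.639 CPM to at most 2.46 CPM, in the comparison in which *Nexn* was higher. The defining gene *Ckm*, the muscle creatine kinase, was at most 0.903 CPM in any library, and *Actc1* at most 0.113 CPM. Without the giant sarcomere gene *Ttn*, which ran from 2.04 to 744 CPM within and between groups, the striated list summed to 13.0 to 34.8 CPM at baseline and 15.8 to 30.8 CPM on DOCA-salt, and its part in the level of *Nexn* was not tested.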

How the data were processed

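RNA of RVLM punches was sequenced by the authors from stranded low-input SMART-seq libraries. They aligned the reads with STAR within their MAPR-Seq pipeline. The submitters' processing notes name FastQC and build GRCm38.p6, and the counting program is not given in the sources used here. The table deposited by the authors holds raw read counts per gene, not normalized, for 15 libraries, with gene lengths. Other deposited tables hold the authors' fold changes and FDR values and were not used.

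Of 21926 protein-coding genes, the 14852 above 1 CPM in any library were scaled by TMM. All 15 libraries entered 1 quasi-likelihood fit in edgeR 4.0.16 (R 4.3.3), with a term for each group, and calls were made at 0.05 after Benjamini-Hochberg adjustment. Levels are CPM over tested counts with TMM factors, and per-kilobase levels divide by the deposited length. Exact two-sided permutation tests were run for single genes. Correlations used log2 CPM with a prior count of 0.5. Gencode vM21 gave coordinates, with 99.5% of gene IDs found. Scripts were tested on simulated data.

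Samples were grouped by their labels. The 10 genes and all lists were chosen with earlier results of these data known, so p-values given for their genes are no independent test. The text names the 10 genes, of each mural list up to 4 of its most abundant and up to 4 called genes, of the lists of other cells mainly the called ones, with *Ckm* added after its values were seen, the 5 genes most correlated with *Acta2* and with *Rgs5*, *Atp6ap2*, and paralogs. Alternatives were DESeq2 1.42.0, RLE scaling, 2 further filters, genes of every biotype, fits of the compared groups alone, a 2-fold limit, the sex pattern as a term, the replicate number as a block, and leaving out each library. No replicates agreed within sampling noise (chi-square over degrees of freedom at least 5.59).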

Additional observations from a re-analysis of the deposited data

Results flagged for a closer look

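*Nexn* is listed here because its DOCA-salt responses in the 2 genotypes differed in edgeR's fit, by 1.0 on the log2 scale (SE 0.20, 95% interval 0.57 to 1.44), the response being 0.90 in Null mice and -0.11 in WT mice. All 3 Null libraries on DOCA-salt were above all 4 at baseline, as for 9.38% of all genes. The gene was chosen by this difference, so the values are a description and no p is given.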

How the results depend on the processing

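Counts here are over the 9 genes other than *Nexn*, which was called in Null mice on DOCA-salt and for the difference between responses, the values that chose it, and not in WT mice. The count of genes called stayed at 0 under all alternatives at baseline and for the difference. In WT mice on DOCA-salt the 3 genes called became 0 with a 2-fold limit, and 1 to 3 when 1 library was left out, the 1 being *Vtn* without WT baseline replicate 3 or WT DOCA-salt replicate 3. In Null mice the 1 gene called, *Vtn*, became 0 with a 2-fold limit or with only the groups compared, and 0 to 1 when 1 library was left out. Between genotypes on DOCA-salt the count of 0 became 1 with DESeq2. The cause was not tested. Fits with only the groups compared do not apply to the difference between responses. RLE in place of TMM scaling moved no comparison by more than 0.0114 (log2).

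Values near 0 changed sign. With the sex pattern as a term, *Tagln* (0.0022) and *Myl9* (-0.00089) did so in Null mice on DOCA-salt and *Rgs5* (0.0021) at baseline between genotypes. Leaving out 1 library gave the following log2 ranges. In WT mice on DOCA-salt against baseline the range was -0.28 to 0.13 for *Des*. In Null mice on DOCA-salt against baseline the ranges were -0.47 to 0.0028 for *Acta2*, -0.26 to 0.23 for *Tagln* and -0.090 to 0.059 for *Myl9*. Between genotypes on DOCA-salt they were -0.099 to 0.17 for *Des* and -0.056 to 0.39 for *Rgs5*. Between genotypes at baseline they were -0.21 to 0.26 for *Tagln*, -0.13 to 0.068 for *Myh11*, -0.088 to 0.052 for *Pdgfrb*, -0.13 to 0.086 for *Rgs5* and -0.055 to 0.11 for *Cspg4*. For the difference between responses they were -0.38 to 0.018 for *Des*, -0.019 to 0.42 for *Rgs5* and -0.11 to 0.071 for *Vtn*.

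Replicate numbers did not pair libraries (8 of 21 same-number pairs had a correlation above 0.1, mean 0.0144, against -0.0044 for different numbers). With the number as a replicate block the counts called, again without *Nexn*, were 3 in WT mice, 1 in Null mice and 0 in the other comparisons, and *Des* changed sign between genotypes on DOCA-salt (-0.035).

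Counts were lowest for *Des* and *Tagln*, whose intervals are the widest, and 3 libraries in 1 group keep exact tests from going below 0.0571.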
